A study of Bos indicus with 12 samples.

Results

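A set of 10 inflammatory genes was followed in the blood of 12 cows, namely TNF, IL12B, IL1RN, IL1B, CXCL8, PTGS2, NFKBIA, NFKB1, RELB and TNFAIP3. They are 10 of the 26229 gene identifiers in the deposited count table, found by their Bos indicus gene symbols, and all 10 were among the 15420 genes tested. They were chosen by the log2 fold changes between high and low milk yield in these same libraries. These run in different directions between the 2 breeds for some of the genes but not for all. Their yield differences within each breed are therefore given below as descriptions with no test. Gir and Shweta Kapila are indigenous Indian cattle breeds, and each contributed 3 high-yielding and 3 low-yielding cows, classed within the breed from lactation records. All animals were females of Bos indicus in the second or the third lactation, none is described as treated, and neither age nor milk yield is analysed here. Each library was made from the blood RNA of a separate cow with ribosomal RNA removed and the strand marked.

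NF-kB is a family of transcription factors that rests in the cytoplasm, held there by inhibitors of which NFKBIA (IkB alpha) is the best known. When a Toll-like receptor, the interleukin 1 receptor or a TNF receptor is engaged, the inhibitor is degraded, the factor enters the nucleus, and it switches on cytokines, chemokines and PTGS2. The same factor switches on its own brakes, NFKBIA and TNFAIP3 (A20), so that the response is self-limiting. In blood, monocytes and neutrophils are known as the main sources of IL1B, IL1RN and CXCL8, while TNF is also made by T cells and NK cells.

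Total counts per library ran from 14209643 to 27165286, and levels are given as CPM, the count relative to the TMM-scaled library total. Shweta Kapila cows of the same group differed from each other more than Gir cows did for 80.7% of tested genes. The labels give the cells as peripheral blood mononuclear cells and the extraction kit as one for whole blood. T cell, B cell and monocyte markers were present in every library, with CD3E at 538 to 1450 CPM, CD79A at 106 to 1150 CPM and CD14 at 13.5 to 61.6 CPM. The neutrophil genes CSF3R, at 419 to 2170 CPM, and CXCR2, at 242 to 894 CPM, were present in every library as well. In such bulk samples, fewer cells of a type and less RNA per cell cannot be told apart.

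**Figure D1:**
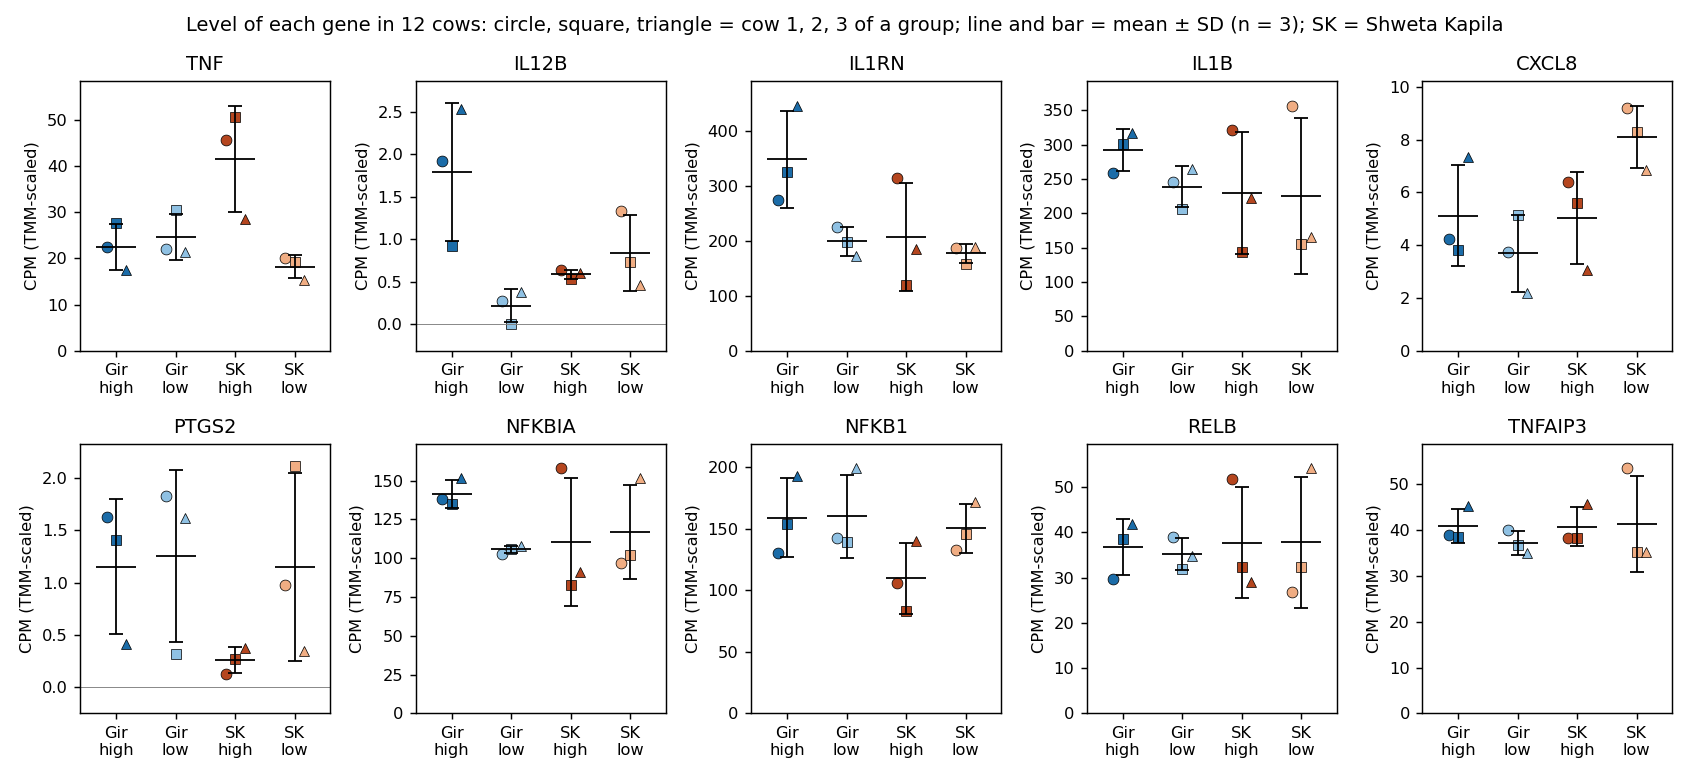
Level of each of the 10 genes in every cow, in CPM on a linear axis that includes 0, with 1 panel per gene. Points are cows, and the line and bar are the mean and SD of the 3 cows of a group. TNF is high in the high-yielding Shweta Kapila cows (28.6 to 50.6 CPM), and IL12B in the high-yielding Gir cows (0.924 to 2.53 CPM).

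TNF encodes tumour necrosis factor, a cytokine that activates NF-kB through its receptors and is itself an NF-kB target. In high-yielding Shweta Kapila cows it stood at 45.6, 50.6 and 28.6 CPM, and in low-yielding ones at 20, 19.2 and 15.4 CPM. In Gir it stood at 22.4, 27.6 and 17.6 CPM with high yield and at 22.1, 30.5 and 21.5 CPM with low yield. All 3 high-yielding Shweta Kapila cows lay above all 3 low-yielding ones, whereas the Gir groups overlapped. High over low yield, the log2 fold change was 1.19 ± 0.28 (SE) in Shweta Kapila, a 2.28-fold higher level, and −0.13 ± 0.28 in Gir. Leaving out each cow in turn moved the Shweta Kapila value between 1.03 and 1.40, while the Gir value changed sign without high 3 (0.02) or low 2 (0.05). In order of the group means, high-yielding Shweta Kapila (41.6 ± 11.5 CPM, mean ± SD, n = 3) stood first by more than the SD of either neighbour, and low-yielding Gir (24.7), high-yielding Gir (22.5) and low-yielding Shweta Kapila (18.2) followed with gaps within their SD. T cell and NK markers were also high in the high-yielding Shweta Kapila cows. The summed level of the 11 T cell markers tested was 3690 to 5130 CPM there, against 2280 to 3240 CPM in low-yielding Shweta Kapila and 2140 to 3240 CPM over both Gir groups. The 5 NK markers tested (KLRK1, PRF1, GZMA, NKG7 and CTSW) summed to 937 to 1460 CPM against 298 to 1050 CPM and 189 to 589 CPM. NCR1, GZMB, GNLY and KLRB1 had no symbol in the count table, and the tested genes do not tell NK cells from other cytotoxic lymphocytes. B cell markers went the other way, with all 8 lower with high yield in Shweta Kapila (median log2 fold change −1.07, 5 at an unadjusted edgeR p under 0.05). The part of these cell types in the TNF level was not tested.

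In the RefSeq gene order of the assembly NIAB-ARS_B.indTharparkar_mat_pri_1.0, TNF lies between LTB and LTA, which encode the lymphotoxins, TNF relatives made by lymphocytes. LTA stood at 28.0, 22.9 and 13 CPM in high-yielding and at 9.83, 12.3 and 13.1 CPM in low-yielding Shweta Kapila cows. The groups overlapped, since high 3 lay just under low 3. Its log2 fold change was 0.86 ± 0.29 in Shweta Kapila and did not pass edgeR's quasi-likelihood test over all genes (unadjusted p = 0.0124, adjusted p = 0.655, 0.00648 to 0.996 over the alternatives). It passed by limma-voom (0.81, adjusted p = 0.018) and by edgeR without high 3 and low 3 (1.20, adjusted p = 0.00648). These settings called 25.3% and 32.5% of all genes in this comparison, in which LTA was also picked for a low p. Over the 12 libraries the 3 named genes whose log2 CPM followed TNF most closely by rank were CREB3 (Spearman rho = 0.937), RASSF1 (0.930) and SNAPC5 (0.923), out of 10953 genes compared. These are the highest of many values and describe the same libraries, so no test goes with them.

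IL12B encodes the p40 chain shared by interleukins 12 and 23, cytokines of monocytes, macrophages and dendritic cells that steer T cells and NK cells. It was a low-count gene. In high-yielding Gir cows it had 32.6, 17.0 and 48.8 expected counts (1.92, 0.924 and 2.53 CPM), and in low-yielding Gir cows 4.38, 0 and 8 (0.272, 0 and 0.382 CPM). The count of 0 allows a level of up to 0.157 CPM (3 counts, counting error only). In Shweta Kapila it stood at 0.633, 0.533 and 0.598 CPM with high yield and at 1.33, 0.736 and 0.457 CPM with low yield. The 2 Gir groups did not overlap, with high yield above, and the Shweta Kapila groups did. In Gir the log2 fold change was 3.00 ± 0.81, an 8-fold higher level, and in Shweta Kapila it was −0.52 ± 0.73. The Gir value ran from 2.42 to 3.77 as each cow was left out, and it was 3.77 without low 3. The Shweta Kapila value was −0.04 without low 1. High-yielding Gir (mean 1.79 CPM) stood first and low-yielding Gir (0.218 CPM) last, each by more than the SD of the neighbouring group, with both Shweta Kapila groups between them.

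The genes nearest to IL12B in rank over the 12 libraries were PDK4, a kinase that inhibits pyruvate dehydrogenase (Spearman rho = 0.937), the connexin GJB2 (0.888) and SNX33, a sorting nexin (0.888). IL12RB1, a receptor chain for interleukins 12 and 23, did not follow the same groups. It stood at 168, 165 and 86.4 CPM in high-yielding Shweta Kapila cows and at 67.7, 61.2 and 64.6 CPM in low-yielding ones, and in Gir between 43.0 and 82.4 CPM. All 3 high-yielding Shweta Kapila cows were thus above every other cow of the study. Its yield difference in Shweta Kapila was 1.11 ± 0.29 (edgeR unadjusted p = 0.00219, adjusted p = 0.575, 0.00402 to 0.996 over the alternatives). It passed by limma-voom (1.26, adjusted p = 0.0058) and by edgeR without high 3 and low 3 (1.37, adjusted p = 0.00402). Of all genes, 25.3% and 32.5% passed in these settings. IL12RB1 was picked for a low p in this same comparison.

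IL1B, interleukin 1 beta, and IL1RN, the antagonist that occupies the same receptor without signalling, were the abundant cytokine genes of the set, with 2704 to 8019 and 2243 to 8667 expected counts. IL1RN stood at 274, 326 and 447 CPM in high-yielding and at 226, 199 and 173 CPM in low-yielding Gir cows. All 3 high-yielding Gir cows lay above all 3 low-yielding ones (log2 fold change 0.81 ± 0.32). In Shweta Kapila it stood at 314, 120 and 186 CPM against 187, 158 and 189 CPM, with high 1 far above the rest. There the log2 fold change was 0.21 ± 0.31, −0.21 without high 1 and 0.49 without high 2.

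IL1B stood at 259, 301 and 317 CPM against 246, 206 and 265 CPM in Gir, where the groups overlapped by a single pair of cows (log2 fold change 0.29 ± 0.35). In Shweta Kapila it stood at 322, 144 and 223 CPM against 357, 155 and 165 CPM, so that 1 cow of each yield class was high. The log2 fold change there was 0.03 ± 0.35, and it turned negative without high 1 (−0.29), low 2 (−0.18) or low 3 (−0.15) and reached 0.51 without low 1.

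The balance of antagonist to agonist within a library was followed as the log2 CPM of IL1RN minus that of IL1B, which compares libraries and not the absolute amounts of the 2 transcripts. It was 0.08, 0.12 and 0.50 in high-yielding and −0.13, −0.05 and −0.62 in low-yielding Gir cows. In Shweta Kapila it was −0.04, −0.27 and −0.26 with high yield and −0.93, 0.03 and 0.20 with low yield. The Gir groups did not overlap and the Shweta Kapila groups did. Over yield classes, the balance was −0.02 ± 0.37 in Gir and −0.21 ± 0.39 in Shweta Kapila (mean ± SD, n = 6 each), and the difference of 0.19 was within that spread (exact 2-sided permutation p = 0.396, adjusted p = 0.489 over 2 balances). It was 0.05 without Shweta Kapila low 1, 0.09 without Gir high 3 and 0.31 without Gir low 3.

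CXCL8, the neutrophil-attracting chemokine interleukin 8, was lower with high yield in Shweta Kapila. It stood at 6.39, 5.60 and 3.06 CPM in high-yielding and at 9.20, 8.28 and 6.85 CPM in low-yielding cows, so the groups did not overlap. In Gir it stood at 4.24, 3.80 and 7.33 CPM against 3.73, 5.14 and 2.20 CPM and overlapped. Its log2 fold change was −0.70 ± 0.40 in Shweta Kapila and 0.48 ± 0.41 in Gir. The first was −0.44 without high 3, and the second was 0.12 without high 3, 0.21 without low 3 and 0.80 without low 2. Low-yielding Shweta Kapila (8.11 ± 1.19 CPM, mean ± SD, n = 3) stood above the other 3 groups, whose means of 3.69 to 5.12 CPM followed with gaps within their SD.

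PTGS2, the inducible cyclooxygenase that starts prostaglandin synthesis in inflammation, was rare and varied between cows of every group. It had 2.5, 5 and 10 expected counts in high-yielding and 22, 46 and 5.96 in low-yielding Shweta Kapila cows (0.127, 0.267 and 0.373 against 0.978, 2.12 and 0.343 CPM). In Gir it stood at 1.63, 1.41 and 0.413 CPM against 1.83, 0.315 and 1.62 CPM. Both pairs of groups overlapped, and in each group with a mean above 1 CPM a single cow stood well under the mean. The log2 fold change was −2.10 ± 0.84 in Shweta Kapila, −1.31 without low 2, and −0.12 ± 0.77 in Gir, where it turned positive without high 3 (0.28), low 1 (0.24) or low 3 (0.12).

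The transcription factor subunits moved less. NFKB1, the gene of p105 and its product p50, stood at 106, 82.8 and 140 CPM in high-yielding and at 133, 146 and 172 CPM in low-yielding Shweta Kapila cows. In Gir it stood at 130, 154 and 193 CPM against 142, 139 and 199 CPM. All groups overlapped, with log2 fold changes of −0.46 ± 0.25 in Shweta Kapila and −0.01 ± 0.25 in Gir. The Shweta Kapila value was −0.29 without high 2, and the Gir value turned positive without high 1 (0.12), high 2 (0.01) or low 3 (0.18). RELB, the subunit of the non-canonical pathway, stood at 29.8, 38.5 and 41.9 against 38.9, 31.9 and 34.8 CPM in Gir and at 51.8, 32.4 and 29.1 against 26.9, 32.4 and 54.2 CPM in Shweta Kapila. In Shweta Kapila, high 1 and low 3 stood above the other 4 cows, 1 in each yield class, and the group means were equal at 37.8 CPM. The log2 fold change of RELB was 0.06 ± 0.30 in Gir and 0.00 ± 0.30 in Shweta Kapila, and −0.29 or 0.35 there without high 1 or low 3.

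Of the feedback inhibitors, NFKBIA was higher in high-yielding Gir cows, at 138, 135 and 152 CPM against 103, 106 and 108 CPM. The Gir groups did not overlap, and the cows within each lay close together (log2 fold change 0.43 ± 0.27, 0.37 to 0.46 as each cow was left out). The SE is from a spread shared with Shweta Kapila, where NFKBIA varied far more, at 158, 82.8 and 91.1 against 96.7, 102 and 152 CPM. There the log2 fold change was −0.08 ± 0.26, −0.42 without high 1, and it turned positive without high 2 (0.09), high 3 (0.04) or low 3 (0.16). TNFAIP3, a ubiquitin-editing enzyme that shuts off NF-kB signalling, was the steadiest gene of the set. It stood between 34.9 and 45.7 CPM in 11 of 12 cows and at 53.4 CPM in Shweta Kapila low 1. Its log2 fold change was 0.13 ± 0.22 in Gir and −0.02 ± 0.22 in Shweta Kapila, and 0.20 there without low 1.

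The log2 CPM of NFKBIA minus that of NFKB1 was 0.09, −0.19 and −0.35 in high-yielding and −0.46, −0.39 and −0.88 in low-yielding Gir cows, without overlap. In Shweta Kapila it was 0.58, 0.00 and −0.62 against −0.46, −0.52 and −0.18, with overlap. Between breeds it was −0.36 ± 0.32 in Gir and −0.20 ± 0.44 in Shweta Kapila (mean ± SD, n = 6 each), a difference of −0.17 within the spread (exact 2-sided permutation p = 0.489, adjusted p = 0.489 over 2 balances). It was −0.01 without Shweta Kapila high 1, −0.06 without Gir low 3 and −0.26 without Gir high 1.

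**Figure D2:**
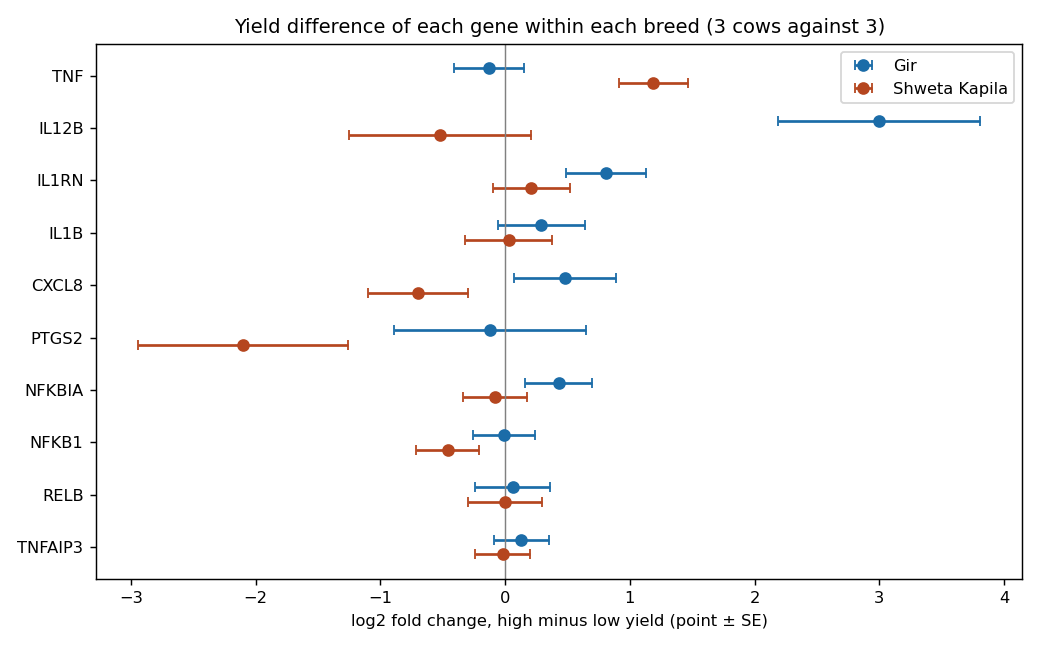
Log2 fold change of high over low yield for each gene in Gir and in Shweta Kapila, with bars of 1 SE. IL12B lies far to the right in Gir (3.00), TNF to the right (1.19) and PTGS2 to the left (−2.10) in Shweta Kapila, and the remaining values lie between −0.70 and 0.81.

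Side by side, the yield difference was above 0 in Gir and below 0 in Shweta Kapila for 5 of the 10 genes, IL12B, CXCL8, NFKBIA, RELB and TNFAIP3. It was the other way round for 1, TNF. IL1RN and IL1B were above 0 in both breeds, and PTGS2 and NFKB1 below 0 in both. Among all tested genes 22.6% had the first pattern, 23.5% the second, 24.8% were above 0 in both breeds and 29.1% below 0 in both. For RELB and TNFAIP3 in Shweta Kapila, and for NFKB1 in Gir, the values were within 0.02 of 0, so their side carries no information. Other sides were not stable either. With a cow left out or in another alternative, the side changed for TNF, PTGS2 and RELB in Gir. It also changed for IL12B, IL1RN, IL1B and NFKBIA in Shweta Kapila. Among the genes with opposite sides, only CXCL8 kept its side in both breeds throughout. Since the members were picked for their directions, these counts are a description. In Gir 7 of 10 members were above 0 (median 0.21), beside 47.4% of all genes (median −0.02). In Shweta Kapila 3 of 10 were above 0 (median −0.05), beside 48.3% of all genes (median −0.02). That count became 6 without high 2 and 5 without high 3. The log2 yield difference in Gir minus that in Shweta Kapila was 3.52 ± 1.09 for IL12B, −1.32 ± 0.39 for TNF, 1.98 ± 1.14 for PTGS2 and 1.17 ± 0.57 for CXCL8. For the other 6 members it lay between 0.06 and 0.60, and 9 of 10 were above 0, beside 50.9% of all genes.

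The yield groups did not overlap for 3 of 10 members in Gir (IL12B, IL1RN and NFKBIA), where 10.2% of all tested genes did not, and for 2 of 10 in Shweta Kapila (TNF and CXCL8), where 7.21% did not. Several lists of cell type markers also leaned to one side with yield in Gir, monocyte markers among them, though edgeR called no marker of any list. At an unadjusted edgeR p under 0.05 were 2 of 8 monocyte, 1 of 11 neutrophil and 1 of 5 dendritic markers, all higher. No marker of the other lists reached it, and 1.89% of all genes did. Of the 8 monocyte markers tested, 7 were higher with high yield (median log2 fold change 0.75). Their summed level was 1000 to 1220 CPM in high-yielding against 618 to 961 CPM in low-yielding cows. The 11 neutrophil markers summed to 4180 to 6180 against 3540 to 4330 CPM, with 10 of 11 higher (median 0.43). In Shweta Kapila 2 of the 8 monocyte markers were higher (median −0.25, 556 to 1080 against 635 to 1390 CPM) and 7 of the 11 neutrophil markers (median 0.34, 2290 to 5670 against 2940 to 4050 CPM). The 5 dendritic cell markers were all higher with high yield in Gir (median 0.43, summing to 62.2 to 94.6 against 44.8 to 68 CPM), and 2 of 5 were higher in Shweta Kapila (median −0.30, 38.6 to 57.3 against 42.6 to 84.2 CPM). The T cell, B cell, NK, and eosinophil and basophil lists leaned the other way in Gir. Higher with high yield were 2 of 11 T cell (median −0.25), 1 of 8 B cell (−0.13), 0 of 5 NK (−0.46) and 1 of 6 eosinophil and basophil markers (−0.33). Platelet markers were split (3 of 6 higher, median −0.03), and 3 of 3 erythroid markers were higher (median 0.57). The part of these cell types in the values of IL12B, IL1RN, IL1B, CXCL8 and NFKBIA was not tested.

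Gir and Shweta Kapila cows were compared over both yield classes. The members were chosen by their yield directions, but with earlier results of these data known, so this comparison may not be free of that choice. None of the 10 genes differed by edgeR's quasi-likelihood test (0 of 10 called, beside 0% of all genes, and 0 of 10 at an unadjusted p under 0.05, beside 9.57% of all genes). DESeq2 called 0 of the 10 and limma-voom with sample weights 2, IL1RN (log2 fold change 0.75, adjusted p = 0.0136) and IL1B (0.60, adjusted p = 0.0397), both higher in Gir. Over all genes DESeq2 called 1.26% and limma-voom 16.7%, so 2 of 10 is near the limma-voom background. For no member were all 6 Gir cows on one side of all 6 Shweta Kapila cows, which 0.603% of all genes showed. In Gir 5 members were higher, beside 45.1% of all genes, and 5 lower (median 0.02, against −0.04 over all genes). Over the alternatives the adjusted p ran from 0.0136 to 0.826 for IL1RN and from 0.0397 to 0.931 for IL1B.

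The largest differences were those of PTGS2, CXCL8 and IL1RN. For PTGS2 the mean ± SD over 6 cows was 1.20 ± 0.665 CPM in Gir against 0.701 ± 0.753 CPM in Shweta Kapila. Its log2 fold change was 1.11, with a 95% interval from −0.13 to 2.34 (edgeR adjusted p = 0.558). CXCL8 stood at 4.41 ± 1.72 against 6.56 ± 2.15 CPM (−0.55, interval −1.17 to 0.07, adjusted p = 0.561). IL1RN stood at 274 ± 101 against 192 ± 65.3 CPM (0.46, interval −0.02 to 0.94, adjusted p = 0.537), and IL1B at 266 ± 39.6 against 227 ± 91.4 CPM (0.22, interval −0.31 to 0.75). NFKB1 stood at 160 ± 29.4 against 130 ± 31.5 CPM (0.31, interval −0.07 to 0.70). For TNFAIP3 the interval ran from −0.42 to 0.27, for NFKBIA from −0.30 to 0.51 and for RELB from −0.54 to 0.40. As folds of Gir over Shweta Kapila, these 3 intervals lie between 0.689 and 1.43. TNF averaged 23.6 ± 4.65 against 29.9 ± 14.8 CPM (−0.22, interval −0.65 to 0.20). The IL12B interval was also wide, from −1.28 to 0.95, and its mean CPM was higher in Gir (1.00 against 0.715) while its log2 fold change was −0.17. All 11 neutrophil markers were higher in Gir (median 0.42), as were 6 of 8 monocyte markers (median 0.43). All 5 markers of the NK list, which other cytotoxic lymphocytes share, were lower (median −1.28). Of the T cell markers 9 of 11 were lower in Gir (median −0.48, 6 at an unadjusted p under 0.05), while all 8 B cell markers (median 0.36), all 5 dendritic (0.31) and all 6 platelet markers (0.38) were higher. The summed T cell markers were high only in high-yielding Shweta Kapila (3690 to 5130 CPM). Low-yielding Shweta Kapila (2280 to 3240 CPM) overlapped with high-yielding (2340 to 2530 CPM) and low-yielding Gir (2140 to 3240 CPM). The NK list summed to 937 to 1460 CPM in high-yielding and 298 to 1050 CPM in low-yielding Shweta Kapila. The part of these cell types in the breed values was not tested.

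**Figure D3:**
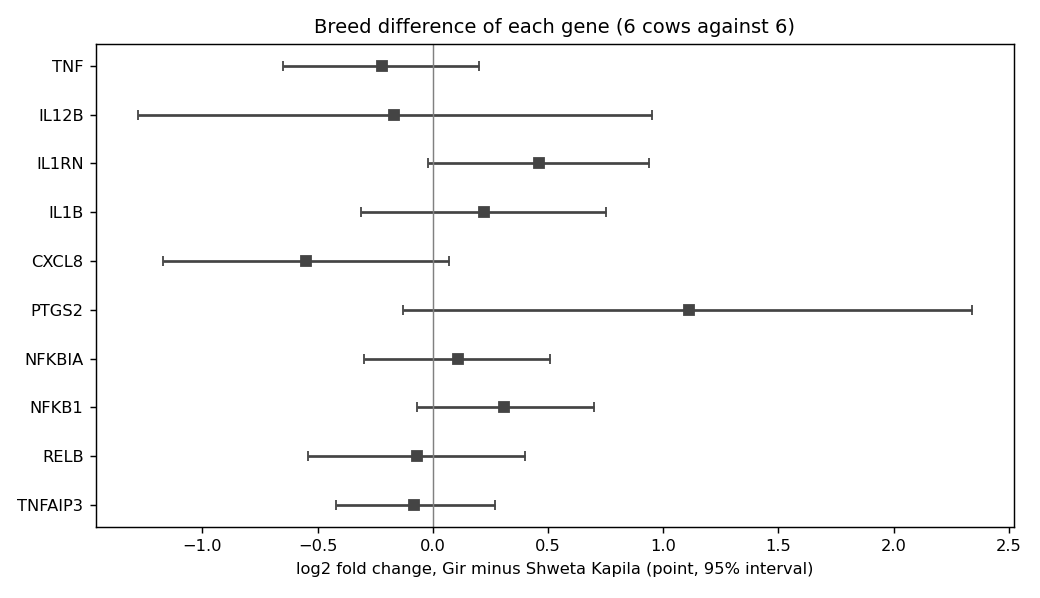
Breed difference of each gene as log2 fold change, Gir minus Shweta Kapila, over 6 cows of each breed with 95% intervals from the edgeR fit. Every interval includes 0. That of TNFAIP3 (−0.42 to 0.27) is among the narrow ones, and those of IL12B (−1.28 to 0.95) and PTGS2 (−0.13 to 2.34) are wide.

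The members differed in how much they varied between cows of the same group, a measure that does not use the contrasts that chose them. The SD of log2 CPM within groups, pooled over the 4 groups, was 0.20 for TNFAIP3, 0.29 for NFKB1, 0.31 for NFKBIA, 0.32 for TNF, 0.37 for RELB and 0.41 for IL1RN. The median of all tested genes was 0.48. IL1B (0.46) and CXCL8 (0.49) lay close to that median, and the low-count genes IL12B (0.77) and PTGS2 (1.01) above it. TNFAIP3 stood at percentile 6.95 and PTGS2 at percentile 92.7 of all tested genes.

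By breed, NFKBIA had an SD of 0.07 in Gir and 0.44 in Shweta Kapila, and IL1B one of 0.17 and 0.63. RELB had 0.21 and 0.48, TNFAIP3 0.11 and 0.27, and IL1RN 0.29 and 0.50. The median gene had 0.30 and 0.56, so the wider spread in Shweta Kapila was shared with most genes. TNF (0.30 and 0.34) and NFKB1 (0.29 and 0.30) varied about alike in both breeds. IL12B (0.98 and 0.49), CXCL8 (0.55 and 0.42) and PTGS2 (1.1 and 0.90) varied more in Gir. The Gir value of IL12B includes low 2, with a count of 0 and −1.37 from its group mean. The log2 CPM of that cow is set by the prior count.

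**Figure D4:**
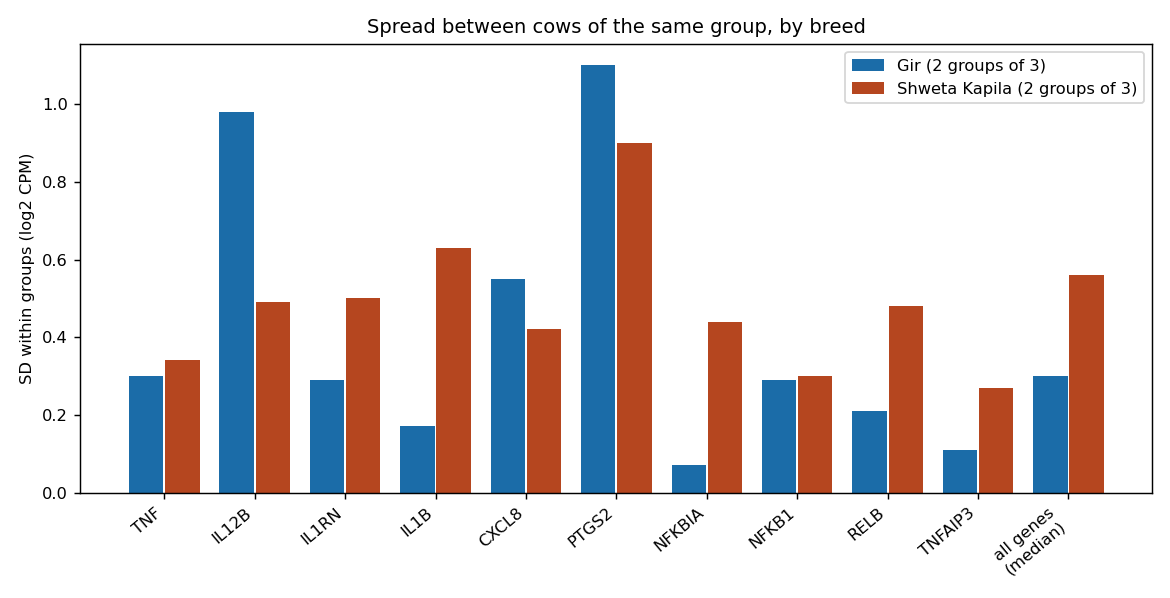
SD of log2 CPM between cows of the same group, pooled over the 2 groups of each breed, for each gene and for the median tested gene. NFKBIA (0.07 against 0.44) and IL1B (0.17 against 0.63) vary far less in Gir. IL12B (0.98 against 0.49) varies more there, where low 2 had a count of 0.

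Pairs of members were then compared by how each cow deviated from its group mean, which takes out the group differences. Of 45 pairs, 24 had a positive Pearson r and 0 passed an exact 2-sided permutation test within groups after adjustment over the 45 pairs. Unadjusted, 4 passed. NFKBIA and RELB deviated in the same direction (r = 0.872, exact permutation p = 0.0424, Spearman rho = 0.804, p = 0.0478, adjusted p = 0.463 and 0.718). In Shweta Kapila both were raised over their group mean in high 1 (0.57 and 0.50) and low 3 (0.41 and 0.58) and lowered in the other 4 cows. Within Shweta Kapila r was 0.939, within Gir, where NFKBIA hardly varied, 0.319, and without the 2 cows farthest from the median 0.647.

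TNF and NFKB1 deviated in opposite directions (r = −0.787, exact permutation p = 0.0285, rho = −0.741, p = 0.0448, adjusted p = 0.463 and 0.718). This pair had r of −0.956 within Shweta Kapila, −0.590 within Gir and −0.611 without the 2 farthest cows. IL12B and IL1B deviated together (r = 0.480, exact permutation p = 0.0355, rho = 0.706, p = 0.0147, adjusted p = 0.463 and 0.660), with r of 0.665 within Gir, 0.752 within Shweta Kapila and 0.620 without the 2 farthest cows. PTGS2 and NFKBIA deviated oppositely (r = −0.542, exact permutation p = 0.0293, rho = −0.413, p = 0.177, adjusted p = 0.463 and 0.736), with r of −0.611 within Gir, −0.749 within Shweta Kapila and −0.489 without the 2 farthest cows. IL1B and IL1RN, agonist and antagonist, had r of 0.651 (exact permutation p = 0.0586, rho = 0.524, p = 0.124, adjusted p = 0.463 and 0.729), which fell to 0.284 without the 2 farthest cows.

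**Figure D5:**
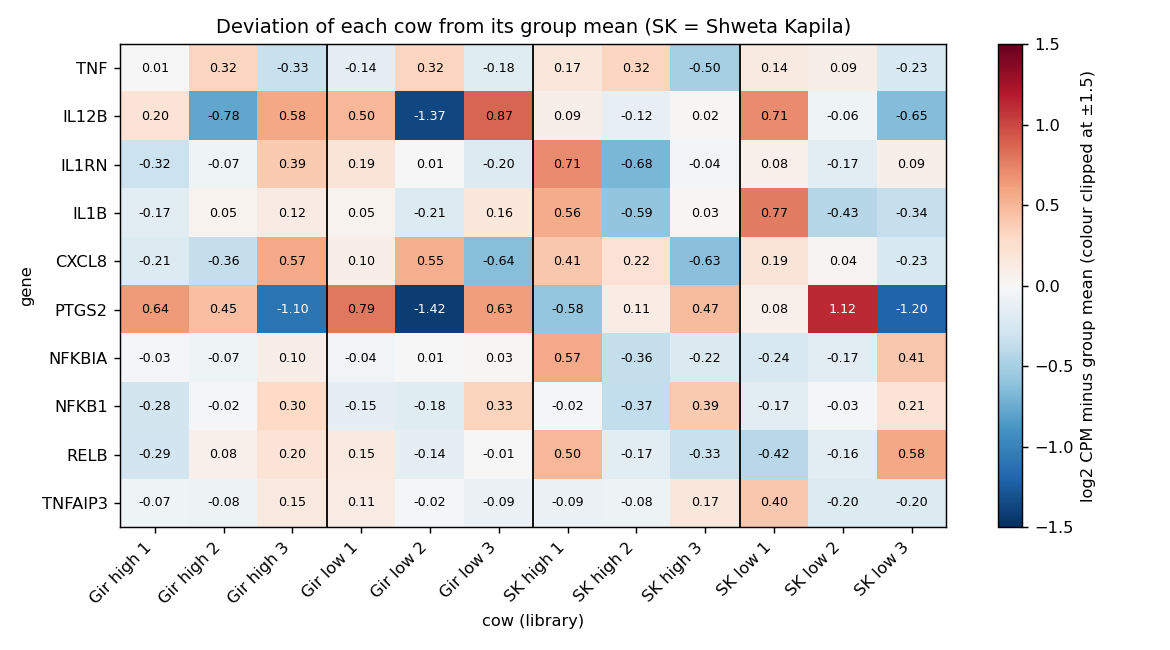
Log2 CPM of each gene in each cow minus the mean of its group, with red above and blue below the group mean and vertical lines between the 4 groups. NFKBIA and RELB share their high values in Shweta Kapila high 1 and low 3, and PTGS2 has the largest deviations, down to −1.42 in Gir low 2.

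Beside the members, 137 other symbols of the pathway were listed, of which 121 had a symbol in the table and 111 were tested. edgeR's quasi-likelihood test called 0 of the 111 for yield in Gir (4 at an unadjusted p under 0.05, all higher, beside 1.89% of all genes), 0 for yield in Shweta Kapila (7, all higher, beside 6.98%), 0 for the difference between these (4 higher and 4 lower, beside 3.81%) and 0 between breeds (2 higher and 5 lower, beside 9.57%). DESeq2 called 0, 1, 1 and 2 of them in the same order, beside 0.00649%, 0.396%, 0.0584% and 1.26% of all genes. Limma-voom with sample weights called 0 for yield in Gir, 19 higher and 6 lower in Shweta Kapila, 7 and 6 for the difference, and 7 and 7 between breeds. It called 0.00649%, 25.3%, 8.57% and 16.7% of all genes in these comparisons. Without Shweta Kapila high 3 and low 3, edgeR called 26 higher and 17 lower of the 111 for yield in Shweta Kapila, beside 32.5% of all genes. The 44 adaptors, kinases and subunits of NF-kB signalling had a median log2 fold change for yield of 0.08 in Gir and 0.01 in Shweta Kapila, with 28 and 22 higher. The 21 other inflammatory ligands had medians of 0.00 and 0.11 (11 and 14 higher). The 20 receptors had 0.28 and 0.12 (13 higher in either breed), and the 26 targets and effectors 0.29 and 0.09 (20 and 14 higher). The median over all genes was −0.02 in both.

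In Gir the highest-ranked pathway genes by p among those above 0 were IL10RA, the signalling chain of the interleukin 10 receptor, TNFRSF1B, a TNF receptor, and the mitochondrial superoxide dismutase SOD2, a classic NF-kB target. IL10RA stood at 275, 262 and 372 CPM against 229, 177 and 179 CPM (log2 fold change 0.64 ± 0.22, edgeR unadjusted p = 0.0118, adjusted p = 1). TNFRSF1B stood at 848, 885 and 1180 CPM against 674, 558 and 589 CPM (0.68 ± 0.24, unadjusted p = 0.0162, adjusted p = 1). SOD2 stood at 194, 246 and 353 CPM against 160, 85.2 and 141 CPM (1.04 ± 0.43, unadjusted p = 0.0332, adjusted p = 1). For each of the 3 the Gir groups did not overlap, which 10.2% of all tested genes showed. They were picked for a low p in this same comparison, so this is a description. On the lower side the lowest p-values were those of the constitutive cyclooxygenase PTGS1 (−0.81 ± 0.49), the kinase IRAK4 (−0.42 ± 0.34) and EGR1 (−0.59 ± 0.48), each at an unadjusted p above 0.05 and an adjusted p of 1.

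In Shweta Kapila the lowest p-values on the higher side were those of CCL5, a chemokine of cytotoxic lymphocytes, IL12RB1 and LTA. CCL5 stood at 2070, 955 and 443 CPM against 172, 159 and 151 CPM (2.85 ± 0.61, 2.13 without high 1, edgeR unadjusted p = 0.000494, adjusted p = 0.575, 0.00144 to 0.996 over the alternatives). CCL5 passed by DESeq2 (adjusted p = 0.00144), by limma-voom (0.00624) and by edgeR without high 3 and low 3 (3.19, adjusted p = 0.00509). In this comparison these settings called 0.396%, 25.3% and 32.5% of all genes. On the lower side stood the adaptor BCL10 (−0.52 ± 0.24, unadjusted p = 0.0554), the interferon-induced chemokine CXCL10 (−0.84 ± 0.44, unadjusted p = 0.0828) and the kinase adaptor TAB2 (−0.66 ± 0.39, unadjusted p = 0.117), all at adjusted p = 0.655. Without high 3 and low 3, edgeR called BCL10 (−0.83, adjusted p = 0.0199) and TAB2 (−1.33, adjusted p = 0.00471), and limma-voom called TAB2 (−0.74, adjusted p = 0.0367). The adjusted p ran from 0.0199 to 0.996 for BCL10 and from 0.00471 to 0.996 for TAB2 over the alternatives. The TAB2 value was −0.19 without low 1, −0.42 without high 1 and −1.02 without low 3.

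Between breeds, SERPINB2, a plasminogen activator inhibitor of monocytes, had the lowest p of the pathway genes. It stood between 1.85 and 3.39 CPM in the 6 Gir cows. In Shweta Kapila it stood at 10.4, 9.55 and 6.27 CPM with high yield and at 14.6, 5.29 and 2.00 CPM with low yield, so that all but low 3 were above every Gir cow. The log2 fold change of Gir over Shweta Kapila was −1.76 ± 0.40 (edgeR unadjusted p = 0.000837, adjusted p = 0.233). SERPINB2 passed in 4 of 22 alternatives, by DESeq2 (adjusted p = 0.0042), by limma-voom (0.00535) and by edgeR without Shweta Kapila low 3 (−1.98, adjusted p = 0.015) or without high 3 and low 3 (−2.08, adjusted p = 0.013). Its adjusted p ran up to 0.554. The log2 fold change was −1.25 without Shweta Kapila low 1, and −0.91 at its weakest in the other alternatives. CCL5 (−1.44 ± 0.41, adjusted p = 0.316 by edgeR and 0.0368 by DESeq2) and IL12RB1 (−0.68 ± 0.20, edgeR adjusted p = 0.318) were the others on that side. Both were high in high-yielding Shweta Kapila alone. CCL5 averaged 1160 CPM there, 161 CPM in low-yielding Shweta Kapila, 127 CPM in high-yielding Gir and 198 CPM in low-yielding Gir. IL12RB1 averaged 140, 64.5, 54.8 and 64.4 CPM in the same order. IL10RA (0.46 ± 0.15, adjusted p = 0.368), LTBR, the lymphotoxin beta receptor (0.67 ± 0.29, adjusted p = 0.497), and MAP3K14, the kinase of the non-canonical pathway (0.49 ± 0.25, adjusted p = 0.56), had the lowest p-values among genes higher in Gir by edgeR. Limma-voom called all of these, CCL5 (adjusted p = 0.0176), IL12RB1 (0.0177), IL10RA (0.0309), LTBR (0.0134) and MAP3K14 (0.0192), beside 16.7% of all genes. Over the alternatives the log2 fold change fell to 0.29 for LTBR and to 0.05 for MAP3K14, whose unadjusted edgeR p was 0.0767. IL12RB1 also passed by edgeR without Shweta Kapila high 3 and low 3 (−0.80, adjusted p = 0.0374).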

How the data were processed

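The authors deposited a table of expected counts, and 57% of its values were fractional (tolerance 1e-06). Per the submitters' processing notes, Trimmomatic and FastQC were used. No source used here gives the aligner, counting program, strand setting, build or annotation, so reads shared between near-identical or overlapping genes may be split in unknown ways. Symbols came by identifier from a RefSeq gene table of another assembly (22754 of 26229 identifiers, 86.8%), so no coordinates are given.

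Counts were rounded and fitted in R 4.3.3 with edgeR 4.0.16 (filterByExpr, minimum count 10 and total 15, TMM, robust quasi-likelihood, 4 group means over 12 libraries, 2-sided, Benjamini-Hochberg over all genes at 0.05). In the smallest library 10 counts make 0.704 CPM, and in the largest 0.368 CPM. SEs are the fold change divided by the root of F. Log2 CPM used a prior count of 2. The script was tested on simulated data. Alternatives used DESeq2 1.42.0, limma 3.58.1, other filters, a replicate block and left-out cows. Permutation tests were computed with NumPy 2.4.6, with ranks and adjusted p-values from SciPy 1.17.1.

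The members and gene lists were chosen with earlier results of these data known. Named pathway genes are the top 3 by p in each direction, for the yield contrast of each breed and for breed, and the 3 tested symbols of highest rank correlation with TNF and with IL12B (mean CPM of at least 1, no LOC number). Each library is a separate cow, so p-values measure the spread between cows. All sample columns were used. The column name of Shweta Kapila low 3 skips a number in that breed's sequence, and it was assigned by its label.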

Additional observations from a re-analysis of the deposited data

How the results depend on the processing

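The counts of genes called over all genes depended most on the test and on 2 Shweta Kapila cows, high 3 and low 3. Where edgeR called 0, DESeq2 called 195 genes between breeds, 1 for yield in Gir, 61 for yield in Shweta Kapila, 9 for the difference between these and 4 for yield over both breeds, and limma-voom with sample weights 2580, 1, 3908, 1321 and 1289. Without high 3 and low 3 together edgeR called 351, 0, 5088, 2624 and 2778, an alternative that leaves 2 cows in each Shweta Kapila group. Without the 3 libraries with the most counts, chosen after seeing the data, the counts were 31, 0, 3, 0 and 1, and low-yielding Shweta Kapila was then a single cow, assumed to vary like the other groups. Between breeds, edgeR also called 3 genes with no filter, 24 with a covariate, the share of counts on 37 gene identifiers shorter than the rest (4.54% to 13.1% per library), and 1 with the replicate block. With each cow left out in turn the breed count ran from 0 to 447, the highest without Shweta Kapila low 3, the count for yield in Shweta Kapila from 0 to 2, and that for the difference from 0 to 1. The cause was not tested.

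The number of members with a yield difference above 0 in Shweta Kapila, 3, became 5 with the covariate and 5 without the 3 largest libraries, and ran from 2 to 6 as each cow was left out. Members called between breeds were 0 by edgeR in each alternative and 2 by limma-voom. The breed difference of IL12B changed side with the covariate (0.01), without the 3 largest libraries (0.29) and without Gir high 2 (0.01), Gir low 2 (0.13) or Shweta Kapila low 1 (0.09), and ran from −0.55 to 0.13 over left-out cows. RELB did so with limma-voom (0.11), without Shweta Kapila high 1 (0.08) or low 3 (0.10), with a range from −0.15 to 0.10 over left-out cows, and without high 3 and low 3 (0.03). TNFAIP3 did so with limma-voom (0.03), without Shweta Kapila low 1 (0.05) and without the 3 largest libraries (0.09), which also turned NFKBIA (−0.13). The TAB2 difference in Shweta Kapila turned with the covariate (0.32) and without the 3 largest libraries (0.26). With prior counts of 0.5 and 5 the number of pairs and the balances kept their side.

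Replicate numbers belong to different cows, and same-numbered cows did not deviate together (correlations from −0.558 to 0.0534 over all genes), so the numbers do not pair the samples. The replicate block moved the breed count from 0 to 1. IL12B and PTGS2 had at most 48.8 and 46 expected counts in a library, which limits their precision.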
